A study of Mus musculus with 6 samples.

Results

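Cells in strong endoplasmic reticulum (ER) stress were examined in whole dorsal skin of mice by droplet single-cell RNA sequencing. A cell was counted among them if transcripts of 9 ER chaperone and folding genes made up at least 1.5% of its unique molecular identifiers (UMIs, the count of captured transcripts) and numbered at least 10 UMIs. The 9 genes were Hspa5, Pdia4, Creld2, Manf, Sdf2l1, Hyou1, Herpud1, Dnajc3 and Hsp90b1. The rule was met by 1184 of 34834 cells, after barcodes under 500 UMIs, under 300 genes or above 10% mitochondrial UMIs had been dropped. They are called stressed cells here, and the remaining 33650 are called other cells. Because the 9 genes chose the cells, the levels of these genes are a description and support nothing else.

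The skin came from wildtype male C57BL/6 mice aged 8, 26 or 52 weeks. Each age has 1 PBMC-sec library, from skin exposed outside the body to a mixture secreted by mononuclear cells of blood after γ-irradiation, and 1 library of untreated skin; the 6 libraries hold 3 pooled animals each. Treated skin was held outside the body before dissociation while untreated skin was dissociated directly, and the PBMC-sec contrast holds both. Dose, duration and whether the libraries of an age shared animals are not given in the labels.

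ER chaperones fold proteins that enter the secretory pathway, and unfolded proteins in the ER set off the unfolded protein response. ATF6 and the IRE1-XBP1 arm switch on chaperones and the machinery that removes misfolded proteins, and the PERK-ATF4 arm lowers general translation and switches on Ddit3 (CHOP), amino acid synthesis and aminoacyl-tRNA synthetases. Dermal fibroblasts are secretory cells that make collagens, whereas keratinocytes build keratin filaments and a cornified layer.

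The ATF6 and XBP1 factors are known to act through the ER stress response element (ERSE), CCAAT and CCACG with 9 free bases between them, and the related ERSE-II, ATTGG and CCACG with 1 free base between them. Both strands of the promoter windows of RefSeq on GRCm38.p6, which run from 250 bases before to 50 bases after each gene start, were searched for these letters. ERSE was found in 39 of 32851 windows (0.119%) and ERSE-II in 12 windows (0.0365%). Of the 9 genes, 7 had a window, and ERSE lay in 4 of the 7, those of Hspa5, Creld2, Dnajc3 and Hsp90b1, while ERSE-II lay in that of Herpud1. The stretches printed here are those of rule genes and of the strongly raised genes Pdia6, Derl3 and Calr, shown because they carry ERSE or ERSE-II, which Pdia4 and Sdf2l1 lack in their windows; each reads 5′ to 3′ on the gene's strand, and capitals mark the outer letters of the element in either orientation.
Hspa5 (chr2:34772005-34772063, plus strand): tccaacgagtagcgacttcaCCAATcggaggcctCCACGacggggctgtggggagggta
Creld2 (chr15:88819500-88819558, plus strand): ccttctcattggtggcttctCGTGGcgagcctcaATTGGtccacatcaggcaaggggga
Dnajc3 (chr14:118937807-118937865, plus strand): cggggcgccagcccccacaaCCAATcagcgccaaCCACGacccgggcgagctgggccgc
Hsp90b1 (chr10:86705618-86705676, minus strand): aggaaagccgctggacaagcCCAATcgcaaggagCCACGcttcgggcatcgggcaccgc
Herpud1 (chr8:94386357-94386407, plus strand): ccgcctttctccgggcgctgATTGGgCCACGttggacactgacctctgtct
Pdia6 (chr12:17266471-17266529, plus strand): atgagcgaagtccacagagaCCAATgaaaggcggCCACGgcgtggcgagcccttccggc
Derl3 (chr10:75893222-75893280, plus strand): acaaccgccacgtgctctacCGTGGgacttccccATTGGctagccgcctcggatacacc
Calr (chr8:84847055-84847113, minus strand): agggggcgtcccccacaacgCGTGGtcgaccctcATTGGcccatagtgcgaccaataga

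In the fixed list of ER folding and degradation genes outside the rule, ERSE lay in 6 of 28 windows, against 0 of 25 windows of the PERK-ATF4 list. A match is a run of letters and was not tested for binding.

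The libraries differed in depth. Stressed cells held 226694 to 1909534 UMIs per library and other cells 17928270 to 39111724. The median stressed cell had 1845, 1819 and 4368 UMIs in the PBMC-sec libraries at 8, 26 and 52 weeks, against 2667.5, 3569 and 4826 for the median other cell. In the untreated libraries the medians were 2140.5, 1495 and 3712.5 UMIs for stressed cells, against 1114, 2242.5 and 2997.5 for other cells. Stressed cells had median mitochondrial shares of 0.726 to 1.18%, below the 1.38 to 2.24% of other cells in every library. In the untreated 8-week library, 4272 barcodes had near-identical profiles, 37 of them stressed cells. Of the kept barcodes, 682 occurred in 2 libraries and 8 in 3, and 58 stressed cells carried a barcode that another library also held.

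Across the libraries the 9 genes were raised together in stressed cells. The median stressed cell gave 2.83% of its UMIs to them (interquartile range 1.96 to 4.28%, highest 27.7%), and the median other cell 0.134%. Hspa5, the main ER chaperone of the Hsp70 family (BiP), reached 14870 to 21505 CPM (counts scaled to a common library total) in stressed cells, against 574 to 1161 CPM in other cells. Hsp90b1, the ER member of the Hsp90 family, reached 6837 to 12150 CPM in stressed cells, against 429 to 707 CPM in other cells. Pdia4, a protein disulfide isomerase, stood at 1195 to 2775 CPM in stressed cells and 58.9 to 96.9 CPM in other cells. Manf, a secreted ER-resident protein, stood at 1749 to 2618 CPM in stressed cells and 131 to 179 CPM in other cells, and Creld2 at 704 to 1867 CPM in stressed cells and 35.9 to 51.2 CPM in other cells. Sdf2l1, Hyou1, Herpud1 and Dnajc3 were lower in level, between 369 and 1070 CPM in stressed cells and between 16.5 and 70.9 CPM in other cells. No gene of the 9 overlapped between the groups, but the cells were split on these genes, so this separation is no result. Around the limit of the rule, 184 stressed cells lay just inside 1.5% and 208 other cells just outside it, and 8 cells past 1.5% were left out for having under 10 UMIs of the 9 genes.

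**Figure D1:**
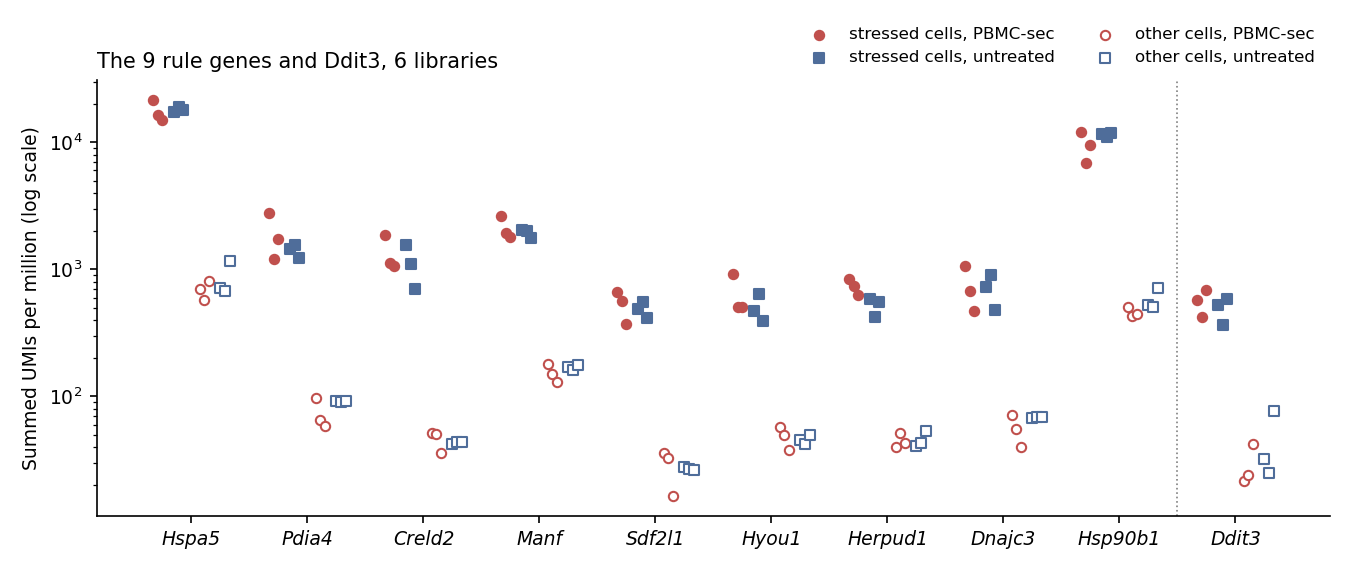
Summed level (CPM, log scale) of the 9 rule genes and of Ddit3 in stressed cells (filled) and other cells (open), 1 point per library, with PBMC-sec as circles and untreated as squares. In every gene the 6 stressed-cell values sit above the 6 other-cell values, by 6.96-fold to 36.8-fold within libraries. The 9 rule genes chose the cells, so their separation is no result.

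Ddit3, the transcription factor CHOP of the PERK-ATF4 arm, was among the markers given for these cells but not in the rule. It stood at 364 to 693 CPM in stressed cells and 21.5 to 77.0 CPM in other cells, 7.59 to 26.8 times higher within libraries. Over all lineages together, Ddit3 was higher in the bands with more of the 9 genes. It reached 923 CPM in the 217 cells with at least 5% of UMIs in the 9 genes, 655 CPM in the 478 cells at 2.5 to 5%, 302 CPM in the 489 cells at 1.5 to 2.5%, and 127 CPM in the 2855 cells at 0.5 to 1.5%. The lineages in the bands differed: fibroblast-like cells were 162 of the 217, 306 of the 478 and 221 of the 489. Within fibroblast-like cells Ddit3 kept the order, with 1016, 760 and 385 CPM in these 3 bands, whereas in keratinocyte-like cells it stood at 151, 245 and 173 CPM in 19, 60 and 120 cells. Pdia3 followed the same order, with 2999, 1565, 1080 and 680 CPM. Atf4 did not keep this order among the stressed cells, with 650, 683 and 553 CPM, and Xbp1 stood at 206, 185 and 157 CPM in these 3 bands.

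Fibroblast-like cells were the most numerous stressed cells in 5 of 6 libraries. Clusters built without the rule genes and without the ER and PERK-ATF4 lists placed 689 of the 1184 stressed cells (58.2%, 95% Clopper-Pearson interval 55.3 to 61.02%) among fibroblast-like cells, which were 21.7% of all cells. Keratinocyte-like cells were 63.0% of all cells and held 199 stressed cells (16.8%, 14.7 to 19.1%). The fibroblast-like share of stressed cells was 41.8, 56.7 and 31.6% in the PBMC-sec libraries and 55.6, 70.4 and 74.7% in the untreated libraries at 8, 26 and 52 weeks. In the PBMC-sec 52-week library keratinocyte-like cells were more numerous, at 34.6% of stressed cells. The pericyte or smooth muscle-like cluster held 123 stressed cells, vascular endothelial-like cells 66, leukocyte-like cells 56, the skeletal muscle-like lineage 39, Schwann-like cells 9 and melanocyte-like cells 1, and 2 stayed unnamed. Intervals of this kind cover counting error within a library only.

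The share of a lineage that was stressed was highest in pericyte or smooth muscle-like cells, at 27.6%. It was 16.4% of skeletal muscle-like, 9.18% of Schwann-like (9 of 98), 9.10% of fibroblast-like and 7.21% of vascular endothelial-like cells. It was 1.78% of leukocyte-like, 1.27% of melanocyte-like (1 of 79) and 0.907% of keratinocyte-like cells. The skeletal muscle-like clusters differed. In the one with Myod1 among its leading genes 35 of 110 cells (31.8%) were stressed, and in the one led by Acta1 4 of 128. As a description of the rule genes, all libraries summed, Hspa5 gave 46.0% of the 9-gene UMIs in fibroblast-like stressed cells, 64.3% in keratinocyte-like ones and 63.5% in pericyte or smooth muscle-like ones, while Hsp90b1 gave 34.0, 20.7 and 22.8%.

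**Figure D2:**
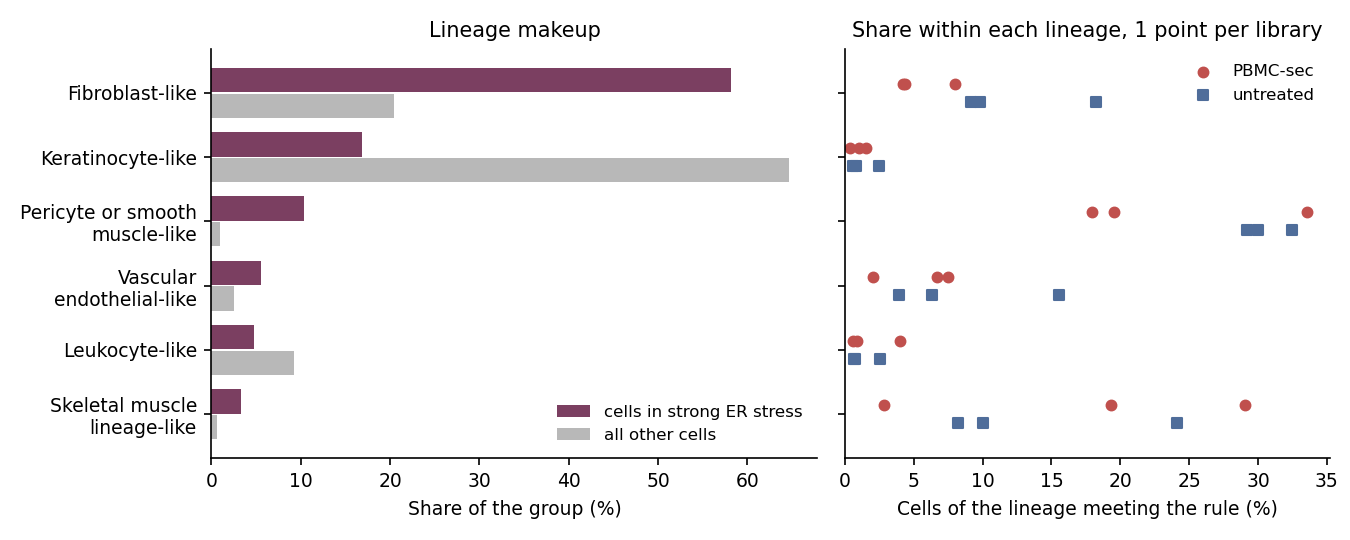
Left, share (%) of stressed cells and of all other cells that fall in each lineage; right, share (%) of each lineage's cells that are stressed, 1 point per library (PBMC-sec circles, untreated squares). Fibroblast-like cells make up 58.2% of stressed cells. Of the lineages shown, the pericyte or smooth muscle-like one has the highest overall share of stressed cells, 27.6%.

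Keratin, collagen and immune markers were read directly in the cells as a check. In fibroblast-like cells collagen UMIs made up 0.136 to 1.105% of the summed UMIs of stressed cells and 0.182 to 1.11% of those of other cells over the 6 libraries. The collagen share was lower in stressed cells in 5 libraries and higher in the PBMC-sec 26-week library (0.258% in stressed, 0.182% in other cells). In the untreated 52-week library the shares were nearly equal, at 1.105% in stressed and 1.11% in other cells. With all libraries summed, collagen made up 0.653% in stressed and 0.432% in other fibroblast-like cells. This sum reflects the mix of libraries. The untreated 52-week library held 224 of the 689 stressed but 1005 of the 6880 other fibroblast-like cells. Keratin UMIs made up 0.123% in stressed and 0.148% in other fibroblast-like cells, all libraries summed. In keratinocyte-like cells keratin UMIs made up 0.845% in stressed cells and 2.09% in other cells. The keratin share was lower in stressed keratinocyte-like cells in all 6 libraries. In leukocyte-like cells immune UMIs made up 0.808% in stressed cells and 1.91% in other cells, but 25 and 18 of the 56 stressed cells came from the PBMC-sec and untreated 52-week libraries. The immune share was higher in stressed cells of the untreated 8-week library (5.01% in 4 stressed cells, 2.14% in other cells) and of the PBMC-sec 26-week library (3.25% in 4 stressed cells, 2.86% in other cells). Krt14 and Krt5, keratins of the basal layer, stood at 2862 and 2173 CPM in keratinocyte-like stressed cells and 6561 and 4076 CPM in other keratinocyte-like cells. Ptprc (CD45), the pan-leukocyte marker, stood at 161 CPM in leukocyte-like stressed cells and 313 CPM in other leukocyte-like cells, and was at 0 in the stressed fibroblast-like and keratinocyte-like cells.

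Calls from single-cell markers were less complete. Of the 689 fibroblast-like stressed cells, 390 were called fibroblast from their own markers, 83 keratinocyte and 210 nothing. Of the 199 keratinocyte-like stressed cells 161 were called keratinocyte, and of the 66 endothelial-like ones 58 were called endothelial. In the pericyte or smooth muscle-like cluster 37 of 123 were called so and 26 were called keratinocyte; its stressed cells held 834 CPM of the pericyte gene Rgs5 and 184 CPM of the smooth muscle actin Acta2, against 922 and 1010 CPM in its other cells. In the skeletal muscle-like lineage 6 of 39 were called so.

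The share of stressed cells differed between the libraries without a common direction for PBMC-sec. At 8 weeks 3.90% of cells were stressed with PBMC-sec (213 of 5459; 3.404 to 4.45%) and 2.14% untreated (198 of 9237; 1.86 to 2.46%). At 26 weeks the shares were 1.76% with PBMC-sec (104 of 5924; 1.44 to 2.12%) and 4.18% untreated (233 of 5579; 3.67 to 4.74%). At 52 weeks they were 2.75% with PBMC-sec (136 of 4949; 2.31 to 3.24%) and 8.14% untreated (300 of 3686; 7.28 to 9.07%), the highest of the 6 libraries. The log2 ratios of PBMC-sec over untreated were 0.86, -1.25 and -1.57, with a mean of -0.65 ± 1.32 (SD, n = 3 ages; exact two-sided sign-flip permutation test p = 0.5, smallest possible 0.25). Cells with at least 1000 UMIs were also thinned to 1000 UMIs, and the rest were dropped. At 8 weeks this kept 4534 of 5459 cells with PBMC-sec and 5191 of 9237 untreated. The shares were then 3.84% with PBMC-sec and 3.06% untreated at 8 weeks, and the 8-week log2 ratio was 0.33. Without the near-identical barcodes this ratio was 0.27.

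Among fibroblast-like cells the share was lower with PBMC-sec at all 3 ages. It was 8.02% with PBMC-sec and 9.19% untreated at 8 weeks, 4.39% with PBMC-sec and 9.81% untreated at 26 weeks, and 4.23% with PBMC-sec and 18.2% untreated at 52 weeks. The log2 ratios were -0.20 (95% interval -0.62 to 0.22), -1.16 and -2.11, with a mean of -1.15 ± 0.96 (SD, n = 3; exact permutation test p = 0.25, the smallest the design allows). At 8 weeks this interval included no difference, and with the rule at 2% of UMIs the ratio was 0.02 (-0.44 to 0.48). The 8-week ratio was -0.54 (-0.98 to -0.10) without the near-identical barcodes and -0.72 (-1.16 to -0.28) with thinned cells. Among keratinocyte-like cells the share was 1.01% with PBMC-sec and 0.555% untreated at 8 weeks, 0.338% with PBMC-sec and 0.812% untreated at 26 weeks, and 1.56% with PBMC-sec and 2.45% untreated at 52 weeks (mean log2 ratio -0.35, exact permutation test p = 0.75). In the pericyte or smooth muscle-like cluster it was 33.6, 17.9 and 19.5% with PBMC-sec and, untreated, 29.2% at 8 weeks, 12 of 40 cells at 26 weeks and 32.5% at 52 weeks. With 1 library a condition, treatment, holding outside the body and library cannot be told apart within an age. Age and library cannot be told apart within a treatment.

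**Figure D3:**
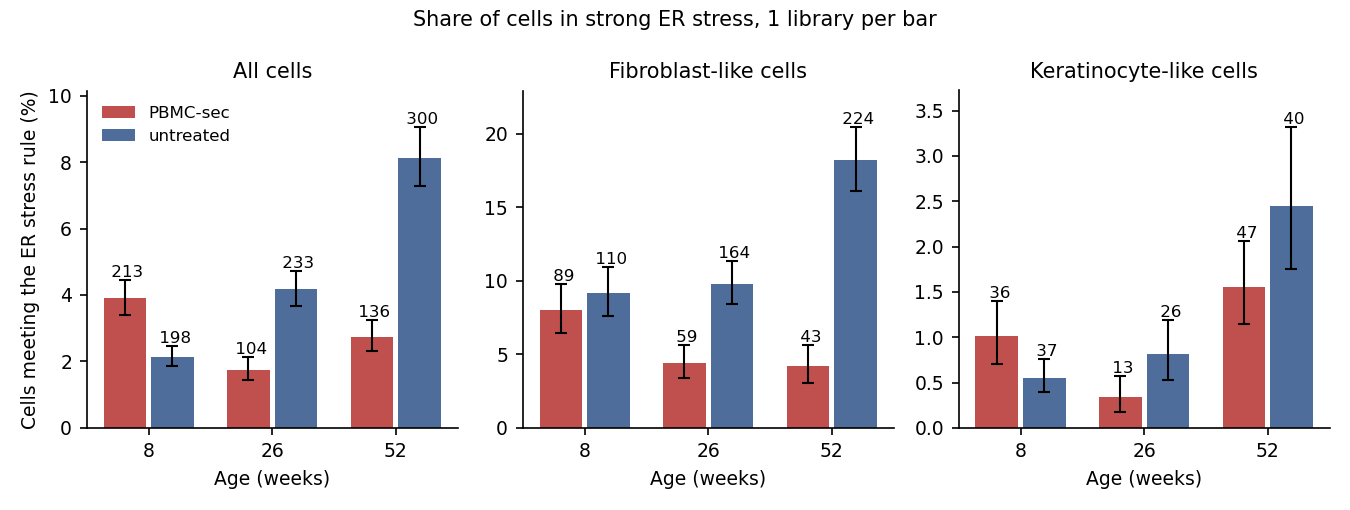
Share (%) of all cells, of fibroblast-like cells and of keratinocyte-like cells that met the ER stress rule, by age and treatment; bars are single libraries, error bars are 95% Clopper-Pearson intervals and the numbers above the bars are stressed cells. Among fibroblast-like cells the PBMC-sec bar is below the untreated bar at each age, from 8.02 against 9.19% at 8 weeks to 4.23 against 18.2% at 52 weeks.

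The genes that went with the 9 genes were then asked for within a lineage, by setting summed stressed cells against summed other cells of the same library. The 9 genes were left out of the test and of the library sizes. As the cells were chosen by ER chaperone level, a gene that passed is one that went with this level across cells, and no treatment is involved. Libraries are pools, so p-values here and throughout measure the spread between libraries and not between animals. Among fibroblast-like cells, all 6 libraries entered, and 2456 of 10922 genes (22.5%) passed an adjusted p of 0.05 in edgeR's quasi-likelihood test with Benjamini-Hochberg adjustment, 952 higher (8.72%) and 1504 lower (13.8%). Without both 8-week libraries 1525 genes passed, and with cells thinned to 1000 UMIs 1160.

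The ER folding and degradation list outside the rule rose nearly whole. Of its 28 genes 26 were higher and 1, Cnpy2, lower, with a median log2 change of 1.86, against -0.11 over all genes tested. Pdia3, a disulfide isomerase that works on glycoproteins, stood at 2819, 1149 and 1699 CPM in stressed cells of the PBMC-sec libraries at 8, 26 and 52 weeks and at 1893, 1878 and 1664 CPM in those of the untreated libraries, against 221 to 449 CPM in other fibroblast-like cells. Its log2 change was 2.49 (SE 0.16, adjusted p = 3.78e-13 by edgeR), and the groups did not overlap. Calr, the calcium-binding lectin chaperone calreticulin, changed by 2.34 (SE 0.15), P4hb, the prolyl hydroxylase subunit and disulfide isomerase, by 1.99 (SE 0.14), and Ero1l, the oxidase that recharges the isomerases, by 1.85 (SE 0.17).

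The largest rise among genes averaging at least 50 CPM was in Derl3, a component of ER-associated degradation. Its levels were 276, 80.4 and 71.0 CPM in stressed cells of the PBMC-sec libraries and 150, 113 and 60.1 CPM in those of the untreated libraries at 8, 26 and 52 weeks, against 0.223 to 3.66 CPM in other fibroblast-like cells. Other fibroblast-like cells held 1 to 17 Derl3 UMIs per library, and the log2 change was 6.42 (SE 0.39, adjusted p = 1.59e-13 by edgeR). Sel1l and Syvn1, adaptor and ubiquitin ligase of the same degradation complex, changed by 3.35 (SE 0.18) and 2.87 (SE 0.20), and Selenos, its selenoprotein partner, by 2.76 (SE 0.16). Dnajb9, a BiP cochaperone, changed by 3.06 (SE 0.17), Pdia6 by 2.81 (SE 0.15), and the prolyl isomerase Fkbp11 by 2.68 (SE 0.19). Wfs1, an ER membrane protein mutated in human Wolfram syndrome, changed by 2.73 (SE 0.22), and the unannotated transcript 5430416N02Rik by 2.69 (SE 0.17).

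The PERK-ATF4 list also rose, by less. Of its 26 genes 21 were higher and 2 lower, with a median of 1.36. Ddit3 stood at 820, 579 and 1148 CPM in stressed cells of the PBMC-sec libraries and 679, 471 and 676 CPM in those of the untreated libraries at 8, 26 and 52 weeks, against 31.9 to 114 CPM in other fibroblast-like cells, a log2 change of 3.62. Atf4 itself changed by 0.86 (SE 0.15, adjusted p = 5.82e-05 by edgeR), and Slc3a2, the heavy chain of amino acid transporters, by 1.66 (SE 0.15). Nupr1, a stress-induced transcriptional regulator, changed by 0.49 (SE 0.15), a call lost in 9 of 22 alternative settings. Cebpb, a partner of CHOP, was lower at -0.42 (SE 0.13). Of 15 cytosolic aminoacyl-tRNA synthetases 12 rose and 0 fell (median 1.09), with Nars at 1.38 and Sars at 1.32.

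Secretory pathway genes moved the same way. Of 28 genes of ER translocation and traffic 23 rose and 0 fell, with a median of 1.11. Ssr3, a subunit of the translocon-associated complex, changed by 1.81 (SE 0.15), Srp9, of the signal recognition particle, by 1.06 (SE 0.15), and Sec61b, a channel subunit, by 0.74 (SE 0.15). Of the 8 ER stress sensors and regulators 5 rose and 1 fell. Atf6 stood at 96.4 to 265 CPM in stressed cells and 36.8 to 57.2 CPM in other cells (log2 change 1.92, SE 0.19, adjusted p = 6.9e-09 by edgeR), and Ern1, which encodes IRE1, changed by 0.90 (SE 0.22). Creb3l1, an ER-bound factor of collagen-secreting cells, had a change of 0.35 and did not pass (adjusted p = 0.358 by edgeR).

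Cytosolic stress and death genes passed in both directions, where 8.72% of all genes tested were higher and 13.8% lower. Of 14 heat shock genes 3 rose and 3 fell (median -0.09). The 3 that rose, Hspa9, Hspd1 and Hspe1, encode mitochondrial chaperones, and Hspa9 changed by 1.56 (SE 0.15), while the cytosolic chaperone Hspa8 changed by -0.60 (SE 0.17). Of 14 cell death genes 2 rose and 2 fell (median -0.23): Mcl1, an anti-apoptotic BCL2 relative, changed by -0.60, and Dapk3, a death-associated kinase, by 0.85. Of 15 immediate early genes, which dissociation can switch on, 1 rose and 4 fell. Of 16 hypoxia and glycolysis genes 3 rose and 0 fell.

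Inflammatory and interferon genes were lower in fibroblast-like stressed cells. Of 16 inflammatory genes 0 rose and 8 fell (median -1.14), and of 10 type I interferon genes 0 rose and 9 fell (median -1.19). Saa3, an acute phase serum amyloid, stood at 32.2, 113 and 65.9 CPM in stressed cells of the PBMC-sec libraries and 15.04, 47.4 and 69.9 CPM in those of the untreated libraries at 8, 26 and 52 weeks. In other fibroblast-like cells it stood at 8439, 1171 and 7026 CPM in the PBMC-sec libraries and 7310, 7494 and 2285 CPM in the untreated libraries. No Saa3 value overlapped between the groups, and the log2 change was -6.54 (SE 0.38, adjusted p = 1.06e-13 by edgeR). The neutrophil-protease inhibitor Slpi changed by -4.30, the siderophore-binding lipocalin Lcn2 by -3.74, the chemokine Ccl2 by -1.65 and the interferon regulator Irf7 by -2.22. Cxcl1, a neutrophil-attracting chemokine, had a change of 0.20 and did not pass (adjusted p = 0.273 by edgeR), at 4658 to 20559 CPM in stressed cells and 4076 to 12998 CPM in other cells.

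Of 14 matrix genes 2 rose and 7 fell (median -0.59), and of 12 fibroblast markers 0 rose and 9 fell (median -0.79). Dcn, the proteoglycan decorin, stood at 1933 to 2788 CPM in stressed cells and 4335 to 6254 CPM in other cells (log2 change -1.25, SE 0.14). Serpinh1, the collagen chaperone HSP47 of the ER, was among the 2 that rose. Col1a1 had a change of -0.61 and did not pass (adjusted p = 0.165 by edgeR), with values from 78.8 to 5150 CPM in stressed cells. Of 16 keratinocyte markers 0 rose and 6 fell, and their sum was 0.0380 to 0.541% of UMIs in stressed and 0.172 to 0.697% in other fibroblast-like cells. By the same minimum the largest remaining falls were in Wfdc12, U90926, Rarres2, Prelp, Crabp1, Ccl8 and Cfb, with log2 changes between -4.72 and -3.46.

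**Figure D4:**
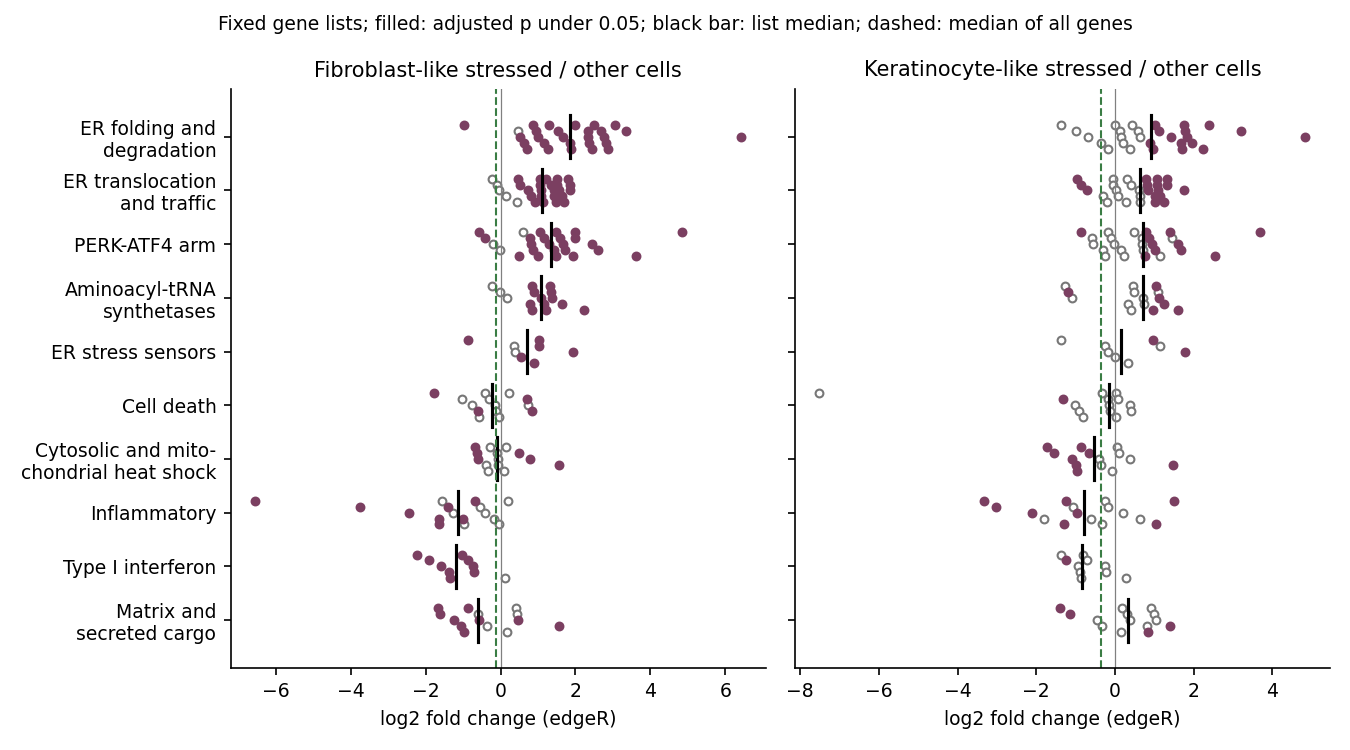
Log2 fold change of each gene of 10 fixed lists in stressed over other cells, for fibroblast-like (left) and keratinocyte-like cells (right); points are genes, filled where the adjusted p is under 0.05, black bars are list medians and the dashed line is the median of all genes tested. The ER folding median is 1.86 in fibroblast-like and 0.93 in keratinocyte-like cells, and the interferon median in fibroblast-like cells is -1.19.

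The fibroblast-like stressed cells lay in several kinds of cluster; genes that define a cluster are a description of it. A collagen-high cluster, led by Col1a1, Thbs4, Bgn and Col3a1, held 150 of them among 499 cells, and 122 of the 150 came from the untreated 52-week library. They were deep cells, with a median of 7489 UMIs, and held 4629 CPM of Col1a1, 2391 CPM of Dcn and 692 CPM of Ddit3. A group of collagen-low clusters held 318 stressed cells among 1217 cells, 128 of them from the untreated 26-week library. Their summed level was 78.7 CPM for Col1a1, 1192 CPM for Dcn, 116 CPM for Pdgfra, a platelet-derived growth factor receptor gene, and 908 CPM for Ddit3. One of these clusters, with 173 stressed cells among 423, was itself led by the rule genes Hsp90b1, Hspa5 and Creld2. Another, with 97 among 529, had Pdia4 and Creld2 among its leading genes, and the last, with 48 among 265, was led by Kcnq1ot1. Of 12 fibroblast markers 10, 8 and 12 were raised in these clusters. The remaining fibroblast-like clusters held 221 stressed cells among 5853, with 1825 CPM of Col1a1, 3581 CPM of Dcn and 525 CPM of Ddit3.

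Summed over all libraries, which entered in unequal numbers, Saa3 and Ccl2 were lower in stressed than in other cells of each kind. Saa3 stood at 24.4 CPM in stressed and 204 CPM in other cells of the collagen-high cluster, 41.9 and 104 CPM in the collagen-low clusters, and 124 and 6207 CPM in the remaining clusters. Ccl2 stood at 689 CPM in stressed and 2487 CPM in other cells of the collagen-high cluster, 2384 and 5409 CPM in the collagen-low clusters, and 3108 and 6802 CPM in the remaining clusters. Without the collagen-high cluster, a setting chosen after the data were seen, 24 of 28 ER folding genes rose and 1 fell.

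**Figure D5:**
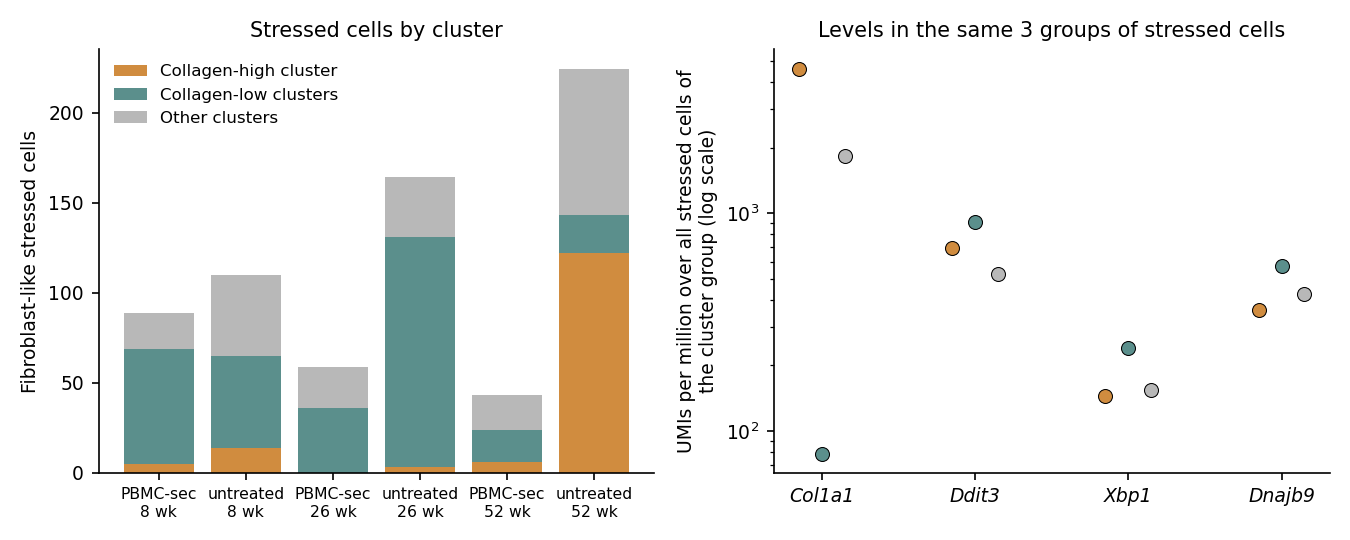
Left, number of fibroblast-like stressed cells per library, by cluster kind; right, summed levels (CPM, log scale) of Col1a1, Ddit3, Xbp1 and Dnajb9 in the stressed cells of each kind. The collagen-high cluster supplies 122 of the 224 stressed fibroblast-like cells of the untreated 52-week library, and Col1a1 spans 78.7 to 4629 CPM between kinds.

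Among keratinocyte-like cells 5 libraries had enough stressed cells; the PBMC-sec 26-week library had 13 and was left out. Here 1810 of 11656 genes (15.5%) passed in edgeR's quasi-likelihood test, 352 higher (3.02%) and 1458 lower (12.5%), and the median over all genes was -0.35. With median-of-ratios scaling this median was -0.15, and 549 genes were higher and 926 lower, so each list median is given against the -0.35. Without the 8-week libraries 1139 genes passed, without the 52-week libraries 625, without the untreated 52-week library alone 1034, and with other cells matched in UMIs per cell 124 of 2159.

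The ER genes rose here too. Of 28 ER folding and degradation genes 15 were higher and 0 lower (median 0.93), and with matched depth 12 of 19 were higher and 0 lower. Pdia3 stood at 1554 and 1116 CPM in stressed cells of the PBMC-sec libraries at 8 and 52 weeks and 1716, 1206 and 1899 CPM in those of the untreated libraries at 8, 26 and 52 weeks, against 164 to 406 CPM in other keratinocyte-like cells. The groups did not overlap, and its log2 change was 1.79 (SE 0.22, adjusted p = 1.48e-13 by edgeR). Selenos changed by 2.38 (SE 0.25), Sel1l by 2.25 (SE 0.26), Pdia6 by 1.95 (SE 0.23) and Dnajb11, another BiP cochaperone, by 1.83 (SE 0.25). Of 28 ER translocation and traffic genes 13 rose and 3 fell, a split of 16 and 0 under median-of-ratios scaling; 4 to 16 rose over all settings. Atf6 changed by 1.78 (SE 0.26), and Gfpt1, the first enzyme of the hexosamine pathway and a target of XBP1, by 1.91 (SE 0.26).

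Of 26 PERK-ATF4 genes 10 rose and 1 fell (median 0.71), and 1 to 11 rose over all settings. Gdf15, a secreted stress cytokine, had the largest rise among genes averaging at least 50 CPM. It stood at 324 and 8.68 CPM in stressed cells of the PBMC-sec libraries at 8 and 52 weeks and 61.8, 139 and 50.5 CPM in those of the untreated libraries at 8, 26 and 52 weeks, against 3.68 to 8.19 CPM in other keratinocyte-like cells. All 5 libraries were higher, over a wide range (log2 change 3.69, SE 0.42), but the call was lost with matched depth and with thinned cells. Ddit3 had a log2 change of 2.54, and Slc3a2 changed by 1.40. Of 15 synthetases 5 rose and 1 fell, led by Aars at 1.60 (SE 0.26).

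Basal and differentiation genes of keratinocytes were low in keratinocyte-like stressed cells, which lay in other clusters than most differentiated cells. The clusters with most of them held 54, 45 and 41, while the cluster led by Lor and Lce1a1 held 0 stressed cells among 748, the cluster led by Defb14, Sprr2f and Lce3b held 2 among 888, and the cluster led by Krt10 held 1 among 759. Of 16 keratinocyte markers 0 rose and 15 fell (median -1.67). All 6 basal and all 7 suprabasal markers, lists that only partly overlap the 16, fell too (medians -1.33 and -2.98). Members of the late cornified envelope family, which are made in the outermost living layers, were at 0 in the 615203 UMIs that these cells of the 5 libraries held outside the 9 rule genes. Against a floor of 3 counts over the group, Lce1a1 was at least 148-fold lower, Lce1m at least 142-fold, Lce1b at least 121-fold and Lce1d at least 88.8-fold, with 433 to 720 CPM in other keratinocyte-like cells. Flg2, a filaggrin family protein, and Kprp, a keratinocyte proline-rich protein, were also at 0, at least 36.7-fold and 33.1-fold lower. For these bounds the other cells were not matched in UMIs per cell. The clusters led by Lor and by Defb14 were deep, with medians of 13931 and 10916 UMIs, while the one led by Krt10 had 1245. The part of depth in these falls was not tested. The keratinocyte list summed to 1.38 to 2.71% of UMIs in stressed cells and 3.77 to 5.17% in other cells.

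Of 14 heat shock genes 1 rose and 7 fell, of 15 immediate early genes 0 rose and 10 fell, and of 15 NRF2 antioxidant genes 1 rose and 7 fell (2 and 3 under median-of-ratios scaling). With other cells matched in UMIs per cell the falls numbered 1, 0 and 2 in these 3 lists. Hspb1, a small heat shock protein, changed by -1.73 (SE 0.22) and the metallothionein Mt1 by -1.63 (SE 0.22). Of 80 ribosomal protein genes 39 fell and 0 rose, but 1 fell under median-of-ratios scaling. Of 16 inflammatory genes 2 rose and 6 fell. Cxcl1 stood at 2347 and 56.4 CPM in stressed cells of the PBMC-sec libraries at 8 and 52 weeks and 557, 582 and 158 CPM in those of the untreated libraries, against 76.0 to 142 CPM in other keratinocyte-like cells. It was higher in 4 of 5 libraries (log2 change 1.52, SE 0.26), and its call was lost in 3 of 21 settings, among them the one without the 8-week libraries, where the change was 0.53. Fibroblast markers summed to 0.0178 to 0.0857% of UMIs in keratinocyte-like stressed cells, against 0.0226 to 0.0490% in other keratinocyte-like cells, and Dcn, a fibroblast marker, was called higher at 0.83, a call lost without the 8-week libraries (-0.009); the part of fibroblast RNA in the Cxcl1 result was not tested.

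Whether the shift of stressed cells differed between the lineages was tested directly as an interaction in the 5 libraries. It differed for 349 of 11921 genes (2.93%), 129 higher (1.08%) and 220 lower (1.85%) in keratinocyte-like than in fibroblast-like cells. This split turned with the method: 506 were higher and 161 lower by DESeq2, 166 and 154 with median-of-ratios scaling, and 111 and 659 without the near-identical barcodes. Of 28 ER folding genes 0 had a higher and 8 a lower shift in keratinocyte-like cells, namely Ufm1, Edem1, Ppib, Xbp1, P4hb, Dnajb9, Selenok and Derl1 (list median -0.79, all genes -0.13). P4hb stood at 1386, 708, 1963, 1234 and 1987 CPM in keratinocyte-like stressed cells and 2106, 1504, 2705, 2418 and 3463 CPM in fibroblast-like stressed cells (PBMC-sec 8 and 52 weeks, then untreated 8, 26 and 52 weeks). The difference in its shift was -0.89 (SE 0.26, adjusted p = 0.0435 by edgeR). Of the inflammatory list 5 genes, Cxcl1, Cxcl5, Ccl2, Lcn2 and Saa3, had a higher shift in keratinocyte-like cells and 0 a lower one. Cxcl5, Ccl2, Lcn2 and Saa3 were called lower in fibroblast-like stressed cells, and the part of fibroblast RNA was not tested.

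PBMC-sec was compared with untreated within the fibroblast-like stressed cells, with age as a factor. Of 4791 genes 173 (3.61%) passed in edgeR's quasi-likelihood test, 69 higher (1.44%) and 104 lower (2.17%); DESeq2 called 28 higher and 12 lower. The p-values rest on how the treatment difference varied between ages. Few ER genes passed. Of 27 ER folding genes 0 rose and 1 fell (median 0.12), of 28 translocation genes and of 15 synthetases 0 passed in either direction by edgeR or DESeq2 (4 and 2 at an unadjusted p under 0.05), and of 26 PERK-ATF4 genes 2 rose, Fgf21 and Gdf15. Pdia3 had a change of 0.06 (SE 0.33), Calr of 0.12 (SE 0.32) and Ddit3 of 0.53 (SE 0.30), none past the threshold. The gene that fell was Ero1l, at 759, 892 and 1427 CPM with PBMC-sec and 2126, 1594 and 4396 CPM untreated at 8, 26 and 52 weeks. The treated and untreated values did not overlap (log2 change -1.24, SE 0.32, adjusted p = 0.0321 by edgeR), but the call was lost in 7 of 14 alternative settings (adjusted p 0.0035 to 0.22).

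Some inflammatory genes were higher with PBMC-sec in these cells. Of 10 inflammatory genes 5 rose and 0 fell (median 0.997), namely Cxcl5, Cxcl2, Ccl2, Cxcl1 and Il6; over the 14 alternative settings 0 to 5 of the list rose. Cxcl3, a neutrophil chemokine, stood at 2991, 1133 and 636 CPM with PBMC-sec and 110, 62.0 and 99.3 CPM untreated at 8, 26 and 52 weeks, with no overlap. Its log2 change of 3.91 (SE 0.39, adjusted p = 1.16e-05 by edgeR) passed in all 14 alternative settings. Cxcl5 stood at 10609, 1061 and 1506 CPM with PBMC-sec and 271, 412 and 202 CPM untreated (log2 change 3.26, SE 0.54). Cxcl1 stood at 20559, 13426 and 8073 CPM with PBMC-sec and 5969, 4658 and 5514 CPM untreated (log2 change 1.37, SE 0.37), and its call was lost in 7 of 14 settings.

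Of 15 NRF2 antioxidant genes 3 rose, Srxn1, Nqo1 and Gclc, and 0 fell (median 0.91); 0 to 5 rose over the settings. The epithelial cytokine Tslp changed by 2.54, with 178 of its UMIs in the PBMC-sec 8-week library and 5 to 29 in each of the others, and the call was lost in 4 of 11 settings. The collagenase Mmp13 changed by 2.34, the aldose reductase Akr1b3 by 3.44 and the linker histone H1f0 by 2.44. Trdc, the constant region of the T cell receptor delta chain and a lymphocyte marker, changed by 4.51, while Ptprc was at 0 in these cells. Igfbp2 changed by 3.51, with 163 of its UMIs in the PBMC-sec 52-week library and 59 in the untreated one.

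Of 10 interferon genes 0 rose and 7 fell with PBMC-sec (median -2.14), and 0 to 9 fell over the 14 settings. Rsad2, the antiviral protein viperin, stood at 14.3, 0 and 48.2 CPM with PBMC-sec and 213, 54.7 and 104 CPM untreated at 8, 26 and 52 weeks (log2 change -2.20, SE 0.49), and Bst2, the virion-retaining tetherin, changed by -1.34. Ndufa4l2, a HIF-induced mitochondrial protein, stood at 136, 177 and 101.4 CPM with PBMC-sec and 647, 609 and 513 CPM untreated, and its change of -2.06 (SE 0.30, adjusted p = 0.000477 by edgeR) passed in all 14 settings. Of 11 keratinocyte markers 0 rose and 6 fell (median -1.18), and Cstdc5, S100a14, Gjb2 and Stfa1 fell by between 2.03 and 2.17 on the log2 scale. Keratin UMIs made up 0.128, 0.123 and 0.0178% of the UMIs of these cells with PBMC-sec and 0.270, 0.152 and 0.106% untreated at 8, 26 and 52 weeks; their part in the other results was not tested. Without the collagen-high cluster 58 genes passed, 2 of 10 inflammatory and 6 of 10 interferon genes among them. Without the replicate block of age 4 genes passed, and with the 8-, 26- or 52-week libraries left out 115, 105 and 69.

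Age was compared in the same fit. Between 52 and 8 weeks 58 of 4791 genes (1.21%) passed in edgeR's quasi-likelihood test, 30 higher (0.626%) and 28 lower (0.584%) at 52 weeks. Of 14 matrix genes 5 rose and 0 fell (median 1.497), namely Col1a1, Col3a1, Col6a1, Fn1 and Lox. Col1a1 stood at 578 CPM (PBMC-sec) and 5150 CPM (untreated) at 52 weeks and 78.8 CPM (PBMC-sec) and 316 CPM (untreated) at 8 weeks (log2 change 3.69, SE 0.78, adjusted p = 0.0215 by edgeR). The calls in the matrix list numbered 0 without the collagen-high cluster, where 3 genes passed in all; without the 26-week libraries 18 passed. Of 27 ER folding genes 0 rose and 1 fell. That gene was Derl3, at 71.0 and 60.1 CPM at 52 weeks and 276 and 150 CPM at 8 weeks (PBMC-sec, then untreated). Keratinocyte markers fell as well, 6 of 11, and Krt5 stood at 22.8 and 182 CPM at 52 weeks and 347 and 852 CPM at 8 weeks. The libraries of an age may share animals, in which case each age is a single pool of mice.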

How the data were processed

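The deposited matrices hold UMI counts per gene and cell barcode, not normalised, written by Cell Ranger 5.0.1 per the file headers; reads were mapped to mm10 (GRCm38) per the submitters' processing notes. The labels name the Chromium 3′ kit, version 3.1, for all 6 libraries.

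The stressed cells, gene lists and tests were chosen with earlier results of these data known. Cells were clustered on 2000 variable genes without the rule genes and the ER and PERK-ATF4 lists (counts scaled to 10000, 30 principal components, 20 neighbours, Leiden resolution 1.0, leidenalg 0.10.2; mixed clusters again at 0.6 with 20 components and 15 neighbours), with no batch integration. Clusters took the name of a marker list if at least 3 of its markers, and a sufficient share of the list, stood above 3 times their lower quartile over clusters plus a small floor, with leading genes deciding between candidate lists; this rule was set after the clusters were seen. The highest doublet scores (0.8% per 1000 barcodes, Scrublet's scheme) were marked and kept, since the rule has no doublet step.

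Raw UMIs were summed per library, lineage and status, for libraries with at least 20 stressed cells of the lineage. edgeR 4.0.16 (R 4.3.3; TMM, filterByExpr, glmQLFTest) tested stressed against other cells with library as block, the interaction with library by lineage as block, and treatment and age in 1 fit of 6 libraries; adjusted p is Benjamini-Hochberg over all genes tested. SEs were obtained by dividing each log2 change by the root of its F. CPM beside a test leaves the 9 rule genes out of the total; in the levels of the rule genes, by band, by lineage and by kind of cluster they are included. The tests were run on simulated counts with 200 genes changed 4-fold: every changed gene called had the right sign, most were called in the fibroblast-like tests, fewer in the keratinocyte-like test and fewest in the interaction, where most were missed. Python 3.11.15 was used for the rest.

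Named were the 9 rule genes and Ddit3, the 4 most abundant tested genes of each list, and in each comparison up to 10 largest rises and falls past 0.05 with a mean of at least 50 CPM and the same direction in every library or age; other names given beside a count were chosen after their values were seen. Some genes that the rule names are not reported here. Replicates are libraries of 3 pooled animals. The shared library of stressed and other cells, and age for PBMC-sec and untreated, pair the sums by construction.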

Additional observations from a re-analysis of the deposited data

Results flagged for a closer look

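With all kept cells, the share of stressed cells moved in opposite directions with PBMC-sec at different ages. Over all cells the log2 ratio of PBMC-sec over untreated was 0.86 at 8 weeks, -1.25 at 26 weeks and -1.57 at 52 weeks, and among keratinocyte-like cells 0.86, -1.26 and -0.65. The difference between ages was not tested, since each condition has 1 library. The untreated 8-week library holds the 4272 near-identical barcodes, without which its ratio over all cells was 0.27.

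The shift of stressed cells differed between keratinocyte-like and fibroblast-like cells for 349 genes by the interaction test. Among the named genes the shift was higher in keratinocyte-like cells for Saa3 (6.08), Lcn2 (3.70), Fstl1 (3.47), Fst (2.92), Ccl2 (2.90), Cd34 (2.84), Ifi205 (2.82), Ccl7 (2.79), Cxcl5 (2.78), Dcn (2.27) and Cxcl1 (1.49), on the log2 scale. It was lower there for Lor (-6.74), Hmgb2 (-1.41), Mt1 (-1.21), Mt2 (-0.998) and P4hb (-0.89). Lor encodes loricrin of the cornified envelope. Saa3, Lcn2, Ccl2, Cxcl5 and Dcn were called lower in fibroblast-like stressed cells, and these falls enter the differences. A keratinocyte-like cluster with 7 stressed cells among 58 had 8 of 12 fibroblast markers raised. Cxcl1, Cxcl5 and Cd34 were among its leading genes. The part of fibroblast RNA in these shifts was not tested.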

How the results depend on the processing

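Of the alternative values of the summary results, 152 kept direction and call, 23 lost the call or fell well under the count, 9 gained it, 6 moved beyond their spread and 3 turned direction; among single genes 5645 kept both, 442 lost the call, 227 gained it and 10 turned. Fibroblast-like stressed against other cells gave 1525 to 2537 genes leaving out libraries (lowest without both 8-week libraries), 1502 with other cells matched in UMIs and 1160 with thinned cells. The keratinocyte-like test gave 625 to 1810 leaving out libraries, 1022 by DESeq2, 124 with matched UMIs and 634 with thinned cells. The 1810 is the main count, met again because the PBMC-sec 26-week library was not in this test. Such reruns are among the values counted as kept. The interaction gave 236 to 580 leaving out ages, 667 by DESeq2, 1019 without a filter, 770 without near-identical barcodes, 931 with the rule at 2% and 699 without the highest doublet scores. PBMC-sec against untreated gave 69 to 115 leaving out ages, 40 by DESeq2, 286 without a filter, 51 with lineage from single-cell markers, 13 at 2% and 58 without the collagen-high cluster. The age test gave 18 without the 26-week libraries, 10 by DESeq2, 121 without a filter, 11 with lineage from single-cell markers, 90 at 1%, 0 at 2% and 3 without the collagen-high cluster; it could not be fitted without the 8-week or the 52-week libraries. Without the replicate block 1927 genes passed in the fibroblast-like, 917 in the keratinocyte-like and 4 in the PBMC-sec test.

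The mean log2 ratio of stressed shares was -1.41 to -0.19 over all cells, -1.63 to -0.68 in fibroblast-like and -0.96 to 0.10 in keratinocyte-like cells leaving out ages. Over all cells the 8-week ratio was 0.33 thinned, 0.27 without near-identical barcodes and -0.20 over fibroblast-like cells, and the 52-week ratio -1.24 at 1%, -2.11 over fibroblast-like and -0.65 over keratinocyte-like cells. The fibroblast-like 8-week ratio was 0.0214 at 2% and -0.72 thinned. Single genes that changed sign were Fth1 (0.0265) and Ldha (0.0259) in keratinocyte-like cells at matched UMIs, Dcn there (-0.009 without the 8-week libraries, up to 1.47 leaving out others), Pcolce in the interaction (-3.92 without the 52-week libraries, up to 3.04), and with lineage from single-cell markers Lce1m (0.47), Lce1b (0.44), Lce1d (1.83), Lce1a2 (2.35), Lce1c (1.02) and 2310050C09Rik (1.55). The causes were not tested. The keratinocyte-like tests rest on 5 libraries with 26 to 47 stressed cells each.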
